A study of Mus musculus with 15 samples.

Results

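The unfolded protein response and the integrated stress response were followed in mouse liver through 35 genes, chosen by name for their known roles. The choice was made with earlier results of these data known, so counts of calls among these genes are descriptions. They comprise 14 chaperones and folding factors of the endoplasmic reticulum (ER), 7 genes of ER-associated degradation, 5 stress sensors with their transcription factors, and 9 genes of the ATF4 axis. All 35 were found in the count table of 26264 genes, and all 35 passed the low-count filter that left 13189 genes for testing. The 15 polyA-selected libraries belong to a study of a long-acting antisense oligonucleotide against Stk25 in fatty liver disease, and form 5 groups of 3: HFD-337, HFD-338, HFD-Res, HFD-NS and SD-NS. HFD is read here as high-fat diet, SD as standard diet and Res as resmetirom, an agonist of the thyroid hormone receptor beta. The labels do not write these out, do not explain NS or the codes of HFD-337 and HFD-338, and do not say whether libraries came from separate animals. If they did not, the p-values below measure only the spread between these libraries. Diet is the known difference between HFD-NS and SD-NS, and the HFD-337, HFD-338, HFD-Res and HFD-NS groups share the high-fat diet. Strain, sex, age, dose and duration are not given in the sources used here.

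Proteins bound for secretion fold in the ER, and the liver, which makes most plasma proteins, keeps large amounts of ER chaperones. When unfolded proteins build up, the sensors IRE1 (gene Ern1), ATF6 and PERK (gene Eif2ak3) are released from the chaperone BiP (gene Hspa5). IRE1 splices the Xbp1 mRNA, ATF6 is cut into a transcription factor, and PERK phosphorylates the translation factor eIF2alpha. Xbp1 and ATF6 raise chaperones and the degradation machinery, while eIF2alpha phosphorylation slows translation and favours that of ATF4, which drives genes of amino acid supply, redox balance and cell death. Other kinases phosphorylate eIF2alpha as well, for instance on amino acid shortage, so the ATF4 axis can move without the ER chaperones. Gene-level counts see neither Xbp1 splicing nor the phosphorylation or cutting of the sensors.

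The promoters of 5 genes are shown, picked because they carry letters that ATF6, XBP1 or ATF4 are known to bind. Each is the stretch of 250 bases before the annotated start, 5′ to 3′ on the gene's strand, from RefSeq on GRCm38.p6, with motif matches in capitals.
Hspa5 (chr2:34771840-34772089, plus strand): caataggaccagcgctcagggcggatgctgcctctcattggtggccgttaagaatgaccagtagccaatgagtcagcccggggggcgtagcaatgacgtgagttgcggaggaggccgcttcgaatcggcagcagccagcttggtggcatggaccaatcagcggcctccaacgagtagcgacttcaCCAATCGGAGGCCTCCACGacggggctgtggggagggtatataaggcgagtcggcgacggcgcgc
Derl3 (chr10:75893148-75893397, plus strand): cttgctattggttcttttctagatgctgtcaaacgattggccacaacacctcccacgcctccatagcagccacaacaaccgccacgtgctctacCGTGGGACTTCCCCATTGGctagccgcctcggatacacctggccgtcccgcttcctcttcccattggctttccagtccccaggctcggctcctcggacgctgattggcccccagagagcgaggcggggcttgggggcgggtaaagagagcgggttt
Herpud1 (chr8:94386179-94386428, plus strand): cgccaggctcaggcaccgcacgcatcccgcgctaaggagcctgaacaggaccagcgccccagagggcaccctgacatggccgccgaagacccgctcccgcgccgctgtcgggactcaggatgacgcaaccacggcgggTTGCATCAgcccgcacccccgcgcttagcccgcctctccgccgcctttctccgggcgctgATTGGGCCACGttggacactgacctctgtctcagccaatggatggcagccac
Chac1 (chr2:119350992-119351241, plus strand): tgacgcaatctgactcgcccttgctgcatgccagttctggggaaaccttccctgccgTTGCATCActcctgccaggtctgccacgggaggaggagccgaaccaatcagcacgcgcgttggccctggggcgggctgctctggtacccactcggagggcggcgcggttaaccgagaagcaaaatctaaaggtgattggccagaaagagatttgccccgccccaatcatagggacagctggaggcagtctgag
Fgf21 (chr7:45615491-45615740, minus strand): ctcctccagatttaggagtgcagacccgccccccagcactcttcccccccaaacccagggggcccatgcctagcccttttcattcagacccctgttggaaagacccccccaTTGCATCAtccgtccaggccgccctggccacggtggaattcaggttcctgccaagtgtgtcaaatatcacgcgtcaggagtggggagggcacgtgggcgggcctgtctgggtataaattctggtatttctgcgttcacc
Promoter sequence was matched for 31 of the 35 genes, without Manf, Hyou1, Derl1 and Atf6. The ER stress response element (ERSE, the boxes CCAAT and CCACG with 9 free bases between them, searched on both strands like the others) was found in 9 of these 31 genes, and in 37 of 32851 promoters of the same length, which is 0.113%. The 9 were Calr, Canx, Creld2, Dnajc3, Hsp90b1, Hspa5 and Pdia6 among the chaperones, and Derl3 and Syvn1 among the degradation genes. Its variant ERSE-II (the boxes ATTGG and CCACG with 1 free base between them) was found in Herpud1 alone among the 31, and in 10 of the 32851 promoters (0.0304%). The C/EBP-ATF response element (CARE, TGATGNAA), read by ATF4 dimers, was found in Asns, Atf3, Chac1, Fgf21 and Herpud1, and in 1134 promoters (3.45%). In Chac1, Fgf21 and Herpud1 the same 8 letters, TTGCATCA on the printed strand, made the match. The XBP1 element core (TGACGTGG) was in none of the 31 and in 185 promoters (0.563%). Dnajb9, Atf5, Edem1 and Sdf2l1, described below, had promoter sequence but no match to any of these motifs. Searches did not merge overlapping motifs, a match is a description of letters, and its absence in this window says nothing about the factor.

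Library totals ran from 3873903 to 9797743 counts. Levels are given as CPM (counts scaled to library size) after TMM scaling, and differences as log2 fold changes of an edgeR quasi-likelihood fit of all 15 libraries, with the standard error (SE). A gene was called when its Benjamini-Hochberg adjusted p over the 13189 genes was under 0.05. Stk25 stood at 14.6 to 19.1 CPM in HFD-337 and 20.5 to 22.0 CPM in HFD-338, against 43.7 to 48.6 CPM in HFD-NS. Marker sums of liver cell types moved with the groups. The 10 hepatocyte markers summed to 79971 to 89124 CPM in HFD-Res, below every other library, against 111857 to 127220 CPM in HFD-NS, with 1 called higher and 4 lower. In HFD-337 they summed to 98457 to 144491 CPM and in HFD-338 to 103461 to 110371 CPM, and in SD-NS to 123171 to 148241 CPM. Against HFD-NS, 2 of the 10 were called higher and 4 lower in HFD-337, and 0 higher and 3 lower in HFD-338. In HFD-NS against SD-NS, 2 were called higher and 4 lower. The shares of all tested genes called are given with each comparison below. The 8 bile duct markers summed to 597 to 755 CPM in HFD-338 against 60.5 to 75.2 CPM in HFD-NS, and 7 of the 7 tested were called higher. The 8 stellate cell markers summed to 777 to 1320 CPM in HFD-338 against 334 to 439 CPM in HFD-NS, with 4 called higher, and the 8 macrophage markers to 235 to 665 CPM against 189 to 248 CPM, with 3 called higher. The 8 sinusoidal endothelium markers summed to 84.7 to 107 CPM in HFD-337 against 233 to 277 CPM in HFD-NS, and all 8 were called lower. In HFD-338 they summed to 103 to 187 CPM, with 6 of the 8 called lower. In HFD-337 the stellate cell markers summed to 131 to 279 CPM, with 4 called lower, the macrophage markers to 58.0 to 145 CPM, with 2 called lower, and the bile duct markers to 85.6 to 263 CPM, with 3 called higher, all outside the HFD-NS ranges just given. Set against HFD-338, HFD-337 had 6 of the 7 tested bile duct markers, 7 of 8 macrophage, 5 of 8 sinusoidal endothelium and 7 of 8 stellate markers called lower. In whole liver, fewer cells of a type and less RNA per cell cannot be told apart. Plasma cells are rich in the same ER machinery. Of the 6 plasma cell markers in the table, summed to 165 to 182 CPM in HFD-NS against 319 to 339 CPM in SD-NS, Sdc1 made up nearly all, and hepatocytes also express it. The same sum was 112 to 149 CPM in HFD-337, 130 to 147 CPM in HFD-338 and 93.1 to 121 CPM in HFD-Res. Tnfrsf17 had 0 counts in all libraries of 4 groups and 1 count in SD-NS, and Mzb1 averaged 0.250 to 0.542 CPM in the 5 groups. The part of other cell types in the results below was not tested.

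The 4 gene lists stood at different levels. On the TPM scale, which divides by exon length, group means in HFD-NS ran from 89.6 to 1827 TPM for the chaperones (median 232), and from 24.2 to 773 TPM for the degradation genes (median 75.9). The sensors and their factors ran from 7.13 to 186 TPM (median 22.3), and the ATF4 axis from 0.230 to 284 TPM (median 6.01).

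Libraries within HFD-NS and within SD-NS stood apart from each other over whole lists. HFD-NS replicate 12 was the highest of its group for 14 of 14 chaperones and HFD-NS replicate 16 the lowest for 14 of 14. SD-NS replicate 7 was the highest of its group for 14 of 14 and SD-NS replicate 6 the lowest for 14 of 14. Summed over the 14 chaperones, the level was 7704, 6697 and 9650 CPM in HFD-337, 7207, 6858 and 7351 CPM in HFD-338, 8263, 8934 and 8531 CPM in HFD-Res, 11234, 9269 and 6212 CPM in HFD-NS, and 4065, 7003 and 5427 CPM in SD-NS. HFD-NS replicate 16 therefore lay below SD-NS replicate 7, and HFD-NS and SD-NS overlapped in the sum. The 9 ATF4 axis genes summed to 434, 397 and 389 CPM in HFD-337, 251, 237 and 203 CPM in HFD-338, 716, 963 and 869 CPM in HFD-Res, 403, 346 and 310 CPM in HFD-NS, and 601, 680 and 736 CPM in SD-NS. Here HFD-338 lay below all other groups, and HFD-Res above HFD-337, HFD-338 and HFD-NS. Atf5 made up most of this sum in every group.

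**Figure D1:**
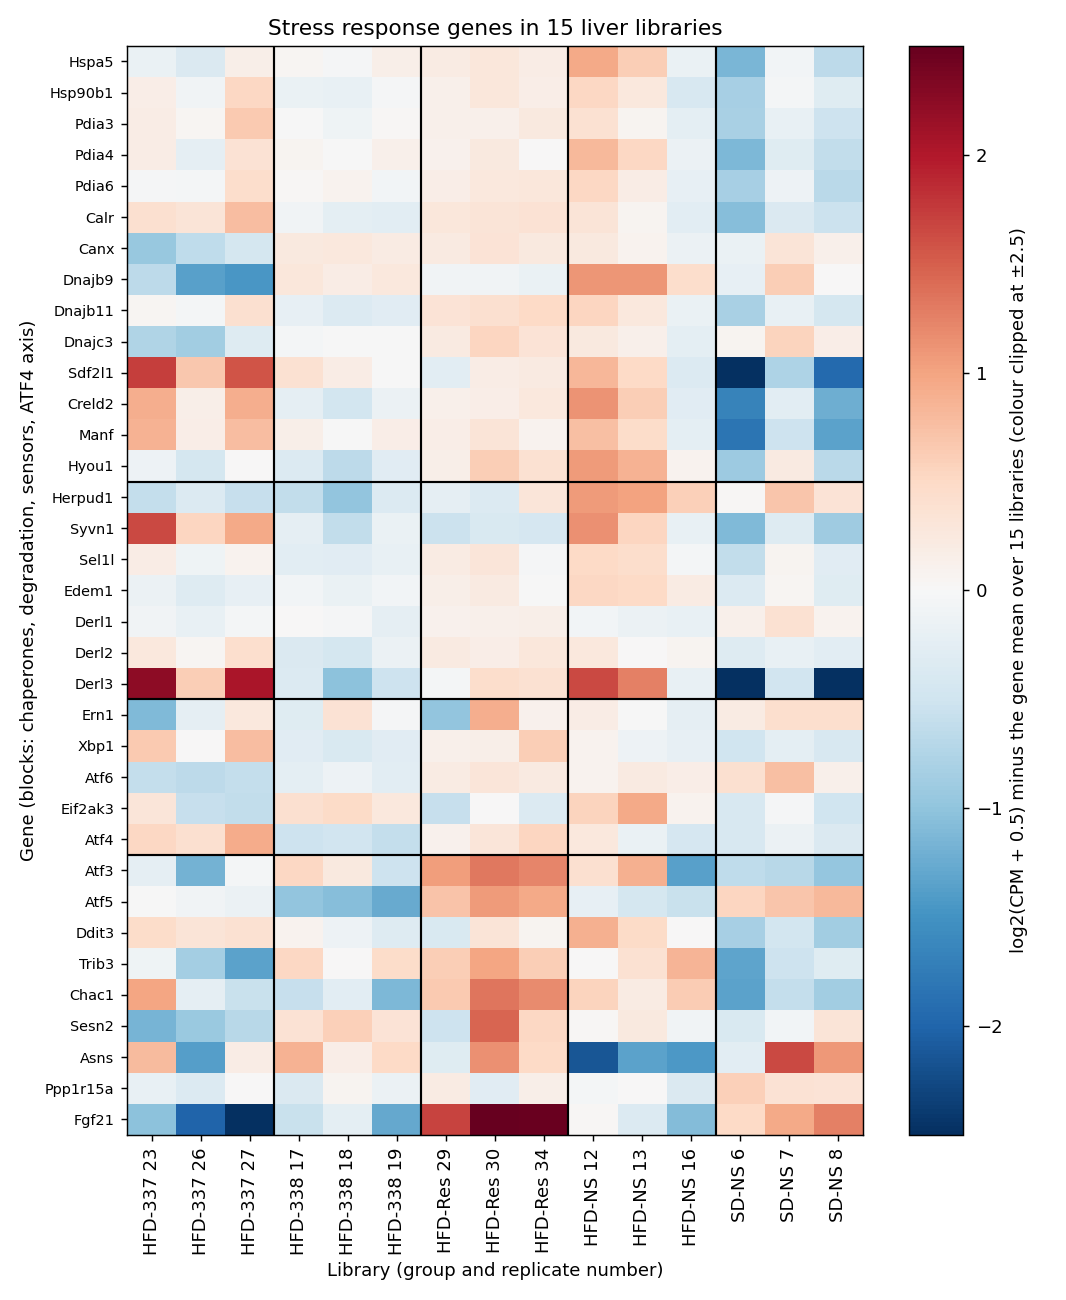
Level of each of the 35 genes (rows, in blocks by role) in the 15 libraries (columns, by group), as log2(CPM + 0.5) minus the gene's mean over the libraries, with colour clipped at ±2.5. The chaperone block is mostly red in HFD-NS replicates 12 and 13 and mostly blue in SD-NS replicate 6, while Fgf21 and Atf5 are red in all 3 HFD-Res libraries.

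HFD-NS livers, set against SD-NS, had higher levels of most of the 21 chaperones and degradation genes, and ATF4 axis genes called in both directions. Of 39 further ER folding, translocation and degradation genes, described at the end, 8 were higher and 8 lower. Of the 35 genes, 20 were called higher in HFD-NS, where 12% of all tested genes were called higher, and 5 were called lower, where 16.1% of all genes were. The median log2 fold change was 0.61 over the 35 genes and -0.02 over all tested genes. By role, 11 of 14 chaperones and 5 of 7 degradation genes were higher, with 0 chaperones and 1 degradation gene lower. Only 1 of the 5 sensors and factors was called, and of the 9 ATF4 axis genes 3 were higher and 4 lower. The HFD-NS and SD-NS libraries did not overlap for 20 of the 35 genes, against 44.8% of all tested genes. The count of 20 was 11 without HFD-NS replicate 12, 8 without SD-NS replicate 6, 12 without SD-NS replicate 8, and 8 in a fit of these 2 groups alone. The count of 5 was 3 without HFD-NS replicate 16, SD-NS replicate 6 or SD-NS replicate 7.

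HFD-337 livers, set against HFD-NS, had fewer transcripts of some chaperones and sensors and more of the factors Xbp1 and Atf4. Of the 35 genes, 5 were called higher and 10 lower, where 24.4% and 22.8% of all tested genes were. The median log2 fold change was -0.12 over the 35 and 0.03 over all genes. The libraries did not overlap for 11 genes, against 52.8% of all tested genes, so the members' shares were near or under those of all genes. By role, 1 chaperone was higher and 4 lower, 0 degradation genes were higher and 2 lower, and the sensors and factors and the ATF4 axis each had 2 higher and 2 lower. The chaperones were split, with 6 of 14 positive and a median log2 fold change of -0.07. Across the 5 groups, HFD-337 had the highest mean for 11 of the 35 genes and the lowest for 10. The count of 5 was 3 without HFD-337 replicate 23, and 2 without HFD-337 replicate 27, HFD-NS replicate 13 or HFD-NS replicate 16. These calls stand beside the lower sinusoidal endothelium, stellate and macrophage marker sums and the higher bile duct sum given above for HFD-337.

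HFD-338 livers, set against HFD-NS, showed calls almost entirely downward, led by degradation genes. Of the 35, 1 gene was called higher and 13 lower, where 18.9% and 17.9% of all genes were. The median log2 fold change was -0.30 over the 35 and 0.00 over all genes, and 15 genes did not overlap, against 51.0% of all genes. By role, 3 of 14 chaperones, 5 of 7 degradation genes, 2 of 5 sensors and factors and 3 of 9 ATF4 axis genes were lower. The count of 13 was 7 without HFD-338 replicate 17, 18 or 19 and 6 without HFD-NS replicate 12. These calls stand beside the higher bile duct and stellate marker sums and the lower hepatocyte and sinusoidal endothelium sums given above for HFD-338.

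In HFD-Res livers, set against HFD-NS, few of the 35 genes were called, at shares near those of all genes. Here 3 of the 35 genes were called higher and 3 lower, where 6.22% and 6.74% of all genes were. The 3 higher genes, Atf5, Asns and Fgf21, all belong to the ATF4 axis, and the 3 lower genes are a chaperone, a degradation gene and a sensor. Of the 9 ATF4 axis genes, 8 had a positive log2 fold change, with a median of 0.71. The 14 chaperones had 7 positive and a median of -0.08, and the 7 degradation genes 2 positive and a median of -0.30. Of the 5 sensors and factors, 4 were positive, with a median of 0.19. The median log2 fold change was 0.08 over the 35 and 0.01 over all genes, and 11 genes did not overlap, against 30.7% of all genes. The count of 3 lower genes was 1 without HFD-Res replicate 34, HFD-NS replicate 12 or HFD-NS replicate 13, and 6 without HFD-NS replicate 16. These calls stand beside the lower hepatocyte marker sum given above for HFD-Res.

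HFD-337 and HFD-338 livers, compared directly, differed in 17 of the 35 genes. In HFD-337, 10 were called higher and 7 lower, where 28.8% and 29.6% of all genes were. By role, 3 chaperones were higher and 3 lower, 3 degradation genes were higher and 0 lower, and the sensors and factors and the ATF4 axis each had 2 higher and 2 lower. The median log2 fold change was 0.12 over the 35 and 0.00 over all genes, and 20 genes did not overlap, against 62.1% of all genes. None of these shares of the 35 was above that of all genes.

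The HFD-337, HFD-338 and HFD-Res comparisons share the 3 HFD-NS libraries, so their values are given side by side and are not independent of each other or of the diet comparison. Of the 20 genes higher in HFD-NS than in SD-NS, 5 were lower and 1 higher in HFD-337, 9 were lower and 0 higher in HFD-338, and 2 were lower and 0 higher in HFD-Res, each against HFD-NS. These 20 genes were picked for high levels in the same 3 HFD-NS libraries, which favours lower calls against that group. Among all tested genes, the HFD-Res comparison called 6.74% lower and 6.22% higher. For HFD-338 these shares were 17.9% and 18.9%, and for HFD-337 they were 22.8% and 24.4%. Whether any group reversed the diet difference was not tested. Dnajb9 and Atf5 were called in all 5 comparisons, and Hsp90b1, Ern1 and Atf3 in none by edgeR.

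Each call was refitted under 12 alternatives, 6 of which left out a library of the groups compared. Below, the libraries whose omission lost a call are named, and "up to" gives the highest adjusted p over all alternatives of that call. Losses under the remaining alternatives are named for some calls only, so that highest value can come from an alternative not named. With TPM recomputed from the counts, the share of higher calls among all calls was 64.4% in HFD-NS against SD-NS, where it was 42.8% on the TMM scale. The same shares were 38.2% and 51.7% in HFD-337 against HFD-NS, 67.2% and 51.4% in HFD-338 against HFD-NS, and 29.3% and 49.3% in HFD-337 against HFD-338. The TPM scale put the median of all genes at 0.12 in HFD-338 against HFD-NS and at -0.23 in HFD-337 against HFD-338 (log2). No member changed sign while called.

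**Figure D2:**
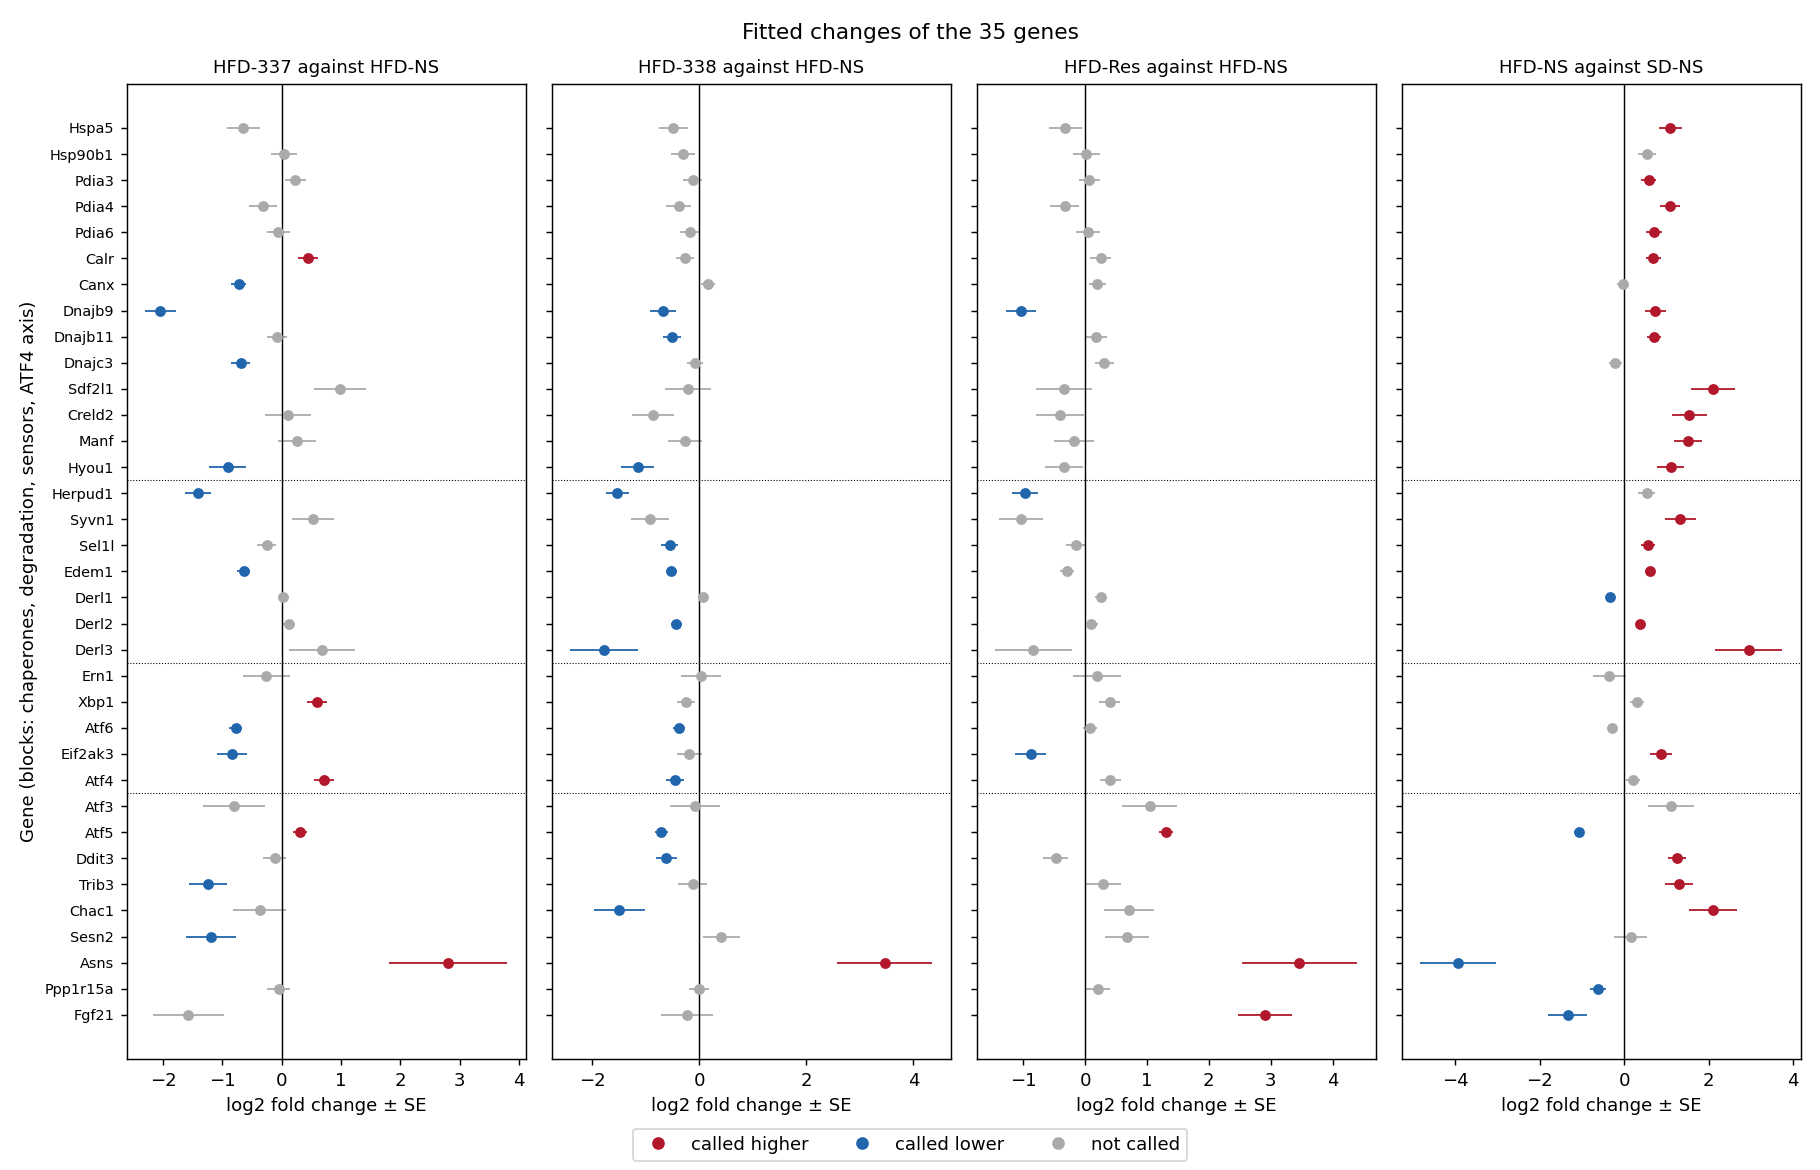
Fitted log2 fold change with SE (x axes) of the 35 genes (rows, in blocks by role) in 4 comparisons, red where called higher, blue where called lower and grey where not called. Dnajb9 and Herpud1 are blue in all 3 comparisons with HFD-NS, and 11 of the 14 chaperones are red in HFD-NS against SD-NS.

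Among the chaperones, Hspa5 encodes BiP, the central ER chaperone that also holds the sensors in check. It had 1503, 1319 and 1874 CPM in HFD-337, 1741, 1647 and 1863 CPM in HFD-338, 1931, 2048 and 1909 CPM in HFD-Res, 3247, 2587 and 1510.5 CPM in HFD-NS, and 766, 1608 and 1076 CPM in SD-NS. HFD-NS replicate 16 lay under SD-NS replicate 7. Hspa5 was 2.13-fold higher in HFD-NS than in SD-NS (log2 fold change 1.09, SE 0.275, edgeR adjusted p = 0.0109). In the fit of those 2 groups alone the call was lost, with adjusted p = 0.118, and against HFD-NS, Hspa5 was not called in HFD-337, HFD-338 or HFD-Res.

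Sdf2l1, which works with the co-chaperone Dnajb11 to keep proteins soluble, had the largest fitted diet difference among the chaperones. Its level was 128, 61.1 and 114 CPM in HFD-337, 50.2, 43.4 and 37.7 CPM in HFD-338, 31.9, 43.2 and 44.7 CPM in HFD-Res, 67.8, 54.5 and 30.1 CPM in HFD-NS, and 4.53, 22.2 and 9.56 CPM in SD-NS. Every library on high-fat diet lay above every SD-NS library. Sdf2l1 was 4.21-fold higher in HFD-NS than in SD-NS (log2 fold change 2.11, SE 0.516, edgeR adjusted p = 0.0119). It was also 2.31-fold higher in HFD-337 than in HFD-338 (log2 fold change 1.19, SE 0.436, edgeR adjusted p = 0.0362), a call lost without HFD-337 replicate 23 or 27, or any HFD-338 library, with adjusted p of up to 0.168.

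Manf, an ER stress protein that can be secreted, had 276, 226 and 138 CPM in HFD-NS against 46.1, 115 and 65.0 CPM in SD-NS. The groups did not overlap, and Manf was 2.83-fold higher in HFD-NS (log2 fold change 1.503, SE 0.332, edgeR adjusted p = 0.00662). Pdia4, a disulfide isomerase, had 617, 498 and 315 CPM in HFD-NS against 161, 283 and 227 CPM in SD-NS. Again without overlap, Pdia4 was 2.13-fold higher in HFD-NS (log2 fold change 1.09, SE 0.238, edgeR adjusted p = 0.00451). Creld2, another ER stress-induced isomerase-like protein, was 2.91-fold higher in HFD-NS and Hyou1, the nucleotide exchange factor of BiP, 2.15-fold, both with HFD-NS replicate 16 inside the SD-NS range. Pdia3, Pdia6, Calr, Dnajb9 and Dnajb11 were 1.49-fold to 1.67-fold higher in HFD-NS. The calls of Pdia3, Pdia6, Creld2, Hyou1 and Dnajb9 were each lost without HFD-NS replicate 12, SD-NS replicate 6 or SD-NS replicate 8, those of Hyou1 and Dnajb9 also without HFD-NS replicate 13, with edgeR adjusted p of up to 0.132. The calls of Sdf2l1, Manf, Pdia4 and Dnajb11 were lost in the fit of HFD-NS and SD-NS alone and in no other alternative, with adjusted p of up to 0.0783, and that of Calr held in all 12. The 3 chaperones not called were Hsp90b1 (log2 fold change 0.54), Canx (-0.04) and Dnajc3 (-0.22).

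Dnajb9, a co-chaperone that recruits BiP to IRE1 and to misfolded proteins, was lower in HFD-Res, HFD-337 and HFD-338 than in HFD-NS. Its level was 54.0, 32.7 and 30.6 CPM in HFD-337, 104, 96.5 and 102 CPM in HFD-338, 80.1, 79.6 and 75.8 CPM in HFD-Res, 184, 183 and 116 CPM in HFD-NS, and 73.1, 130 and 85.2 CPM in SD-NS. All 9 libraries of these groups lay below all 3 HFD-NS libraries, and the HFD-337 libraries lay below all others. Dnajb9 fell to 24.3% of the HFD-NS mean in HFD-337 (log2 fold change -2.05, SE 0.256, edgeR adjusted p = 3.86e-05). In HFD-338 it fell to 62.6% (log2 fold change -0.67, SE 0.239, edgeR adjusted p = 0.0437), and in HFD-Res to 48.8% (log2 fold change -1.03, SE 0.245, edgeR adjusted p = 0.0145). The HFD-337 call held in all 12 alternatives. The HFD-338 call was lost without any of its 3 libraries or without HFD-NS replicate 12 or 13 (adjusted p up to 0.175), and the HFD-Res call without HFD-Res replicate 34, HFD-NS replicate 12 or HFD-NS replicate 13 (up to 0.0639). Between HFD-337 and HFD-338, Dnajb9 in HFD-337 was 38.8% of its HFD-338 mean (log2 fold change -1.37, SE 0.255, edgeR adjusted p = 0.000606).

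The lectin chaperones of glycoproteins, Canx in the ER membrane and its soluble relative Calr, went opposite ways in HFD-337. Canx had 259, 320 and 366 CPM in HFD-337, against 588, 529 and 450 CPM in HFD-NS. Canx fell to 60.3% of the HFD-NS mean (log2 fold change -0.73, SE 0.134, edgeR adjusted p = 0.000208), and no HFD-337 library reached any library of another group. Calr had 1343, 1280.0 and 1746 CPM in HFD-337, against 1286, 1070.3 and 854 CPM in HFD-NS. Calr was 1.36-fold higher with overlapping groups (log2 fold change 0.44, SE 0.168, edgeR adjusted p = 0.0382), and this call was lost without HFD-337 replicate 27, HFD-NS replicate 13 or HFD-NS replicate 16, with adjusted p of up to 0.211. Against HFD-338, where Canx had 590, 596 and 575 CPM and Calr 969, 862 and 849 CPM, both differences were called and neither pair of groups overlapped. Canx in HFD-337 stood at 53.7% of its HFD-338 mean (log2 fold change -0.90, SE 0.134, edgeR adjusted p = 1.96e-05) and Calr was 1.63-fold higher (log2 fold change 0.71, SE 0.169, edgeR adjusted p = 0.00181).

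Dnajc3, an ER co-chaperone of BiP, had 200, 183 and 268 CPM in HFD-337, 326, 336 and 336 CPM in HFD-338, and 400, 369 and 285 CPM in HFD-NS. It fell to 61.8% of the HFD-NS mean in HFD-337 (log2 fold change -0.70, SE 0.155, edgeR adjusted p = 0.00131). Hyou1 had 135, 109 and 150 CPM in HFD-337, 117, 94.1 and 122 CPM in HFD-338, and 313, 272 and 157 CPM in HFD-NS. Its libraries did not overlap those of HFD-NS in HFD-337 or HFD-338, although HFD-337 replicate 27 and HFD-NS replicate 16 lay close. Hyou1 fell to 53.3% of the HFD-NS mean in HFD-337 (log2 fold change -0.91, SE 0.312, edgeR adjusted p = 0.0327) and to 45.005% in HFD-338 (log2 fold change -1.15, SE 0.313, edgeR adjusted p = 0.0139). The HFD-337 call was lost without HFD-337 replicate 23 or 26 or HFD-NS replicate 12 or 13 (adjusted p up to 0.117), and the HFD-338 call without HFD-338 replicate 18 or HFD-NS replicate 12 (up to 0.0590). Dnajb11 had 113, 102 and 107 CPM in HFD-338 against 188, 156 and 115 CPM in HFD-NS, and fell to 70.1% (log2 fold change -0.51, SE 0.170, edgeR adjusted p = 0.0276), a call lost without any HFD-338 library or HFD-NS replicate 12 or 13 (up to 0.157).

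Among the degradation genes, Herpud1 organises the complex that returns misfolded proteins to the cytosol. It had 273, 323 and 276 CPM in HFD-337, 271, 208 and 324 CPM in HFD-338, 350, 325 and 509 CPM in HFD-Res, 866, 831 and 626 CPM in HFD-NS, and 421, 667 and 520 CPM in SD-NS. All 9 HFD-337, HFD-338 and HFD-Res libraries lay below the lowest HFD-NS library, and those of HFD-337 and HFD-338 also below the lowest SD-NS library. Herpud1 fell to 37.5% of the HFD-NS mean in HFD-337 (log2 fold change -1.41, SE 0.213, edgeR adjusted p = 9.35e-05). It fell to 34.5% in HFD-338 (log2 fold change -1.53, SE 0.213, edgeR adjusted p = 8.45e-05) and to 51.0% in HFD-Res (log2 fold change -0.97, SE 0.211, edgeR adjusted p = 0.00647). Each of these 3 calls held in all 12 alternatives. Herpud1 was not called between HFD-NS and SD-NS, whose libraries overlapped. Its promoter, printed above, holds both ERSE-II and CARE letters.

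Edem1, a lectin that hands glycoproteins to degradation, had 155, 136 and 148 CPM in HFD-337, 162, 153 and 162 CPM in HFD-338, 190, 198 and 169 CPM in HFD-Res, 246, 241 and 197 CPM in HFD-NS, and 134, 176 and 139 CPM in SD-NS. HFD-NS lay above HFD-337 and HFD-338 and above SD-NS without overlap. Edem1 fell to 64.1% of the HFD-NS mean in HFD-337 (log2 fold change -0.64, SE 0.112, edgeR adjusted p = 0.000120) and to 69.7% in HFD-338 (log2 fold change -0.52, SE 0.111, edgeR adjusted p = 0.00119). It was 1.52-fold higher in HFD-NS than in SD-NS (log2 fold change 0.61, SE 0.112, edgeR adjusted p = 0.000562), and all 3 calls held in all 12 alternatives.

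Derl3, a derlin of the retrotranslocation channel that ER stress induces, had 37.2, 11.9 and 32.5 CPM in HFD-337, 5.81, 3.46 and 5.10 CPM in HFD-338, 7.28, 10.4 and 10.02 CPM in HFD-Res, 24.6, 18.7 and 6.54 CPM in HFD-NS, and 0.799, 5.25 and 0.281 CPM in SD-NS. Spread within HFD-NS, HFD-337 and SD-NS was wide. Derl3 was 7.89-fold higher in HFD-NS than in SD-NS (log2 fold change 2.95, SE 0.798, edgeR adjusted p = 0.0187). That call was lost without HFD-NS replicate 12, SD-NS replicate 6 or SD-NS replicate 8 (adjusted p up to 0.0878). Derl3 had only 34 counts in the SD-NS group, from 1 to 27 a library, so the size of this fold is uncertain. In HFD-338 it fell to 28.8% of the HFD-NS mean (log2 fold change -1.78, SE 0.635, edgeR adjusted p = 0.0487), which was called in 2 of 12 alternatives and was lost without any HFD-338 library or HFD-NS replicate 12 or 13. Derl3 was 5.67-fold higher in HFD-337 than in HFD-338 (log2 fold change 2.46, SE 0.633, edgeR adjusted p = 0.00647), and that call held in all 12 alternatives.

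Syvn1 encodes the ubiquitin ligase HRD1, and Sel1l its adaptor. Syvn1 had 327, 152 and 203 CPM in HFD-337, 88.9, 68.0 and 93.3 CPM in HFD-338, 231, 151 and 91.3 CPM in HFD-NS, and 48.2, 83.8 and 56.3 CPM in SD-NS. It was 2.51-fold higher in HFD-NS than in SD-NS (log2 fold change 1.33, SE 0.366, edgeR adjusted p = 0.0203), lost without HFD-NS replicate 12, SD-NS replicate 6 or SD-NS replicate 8 (up to 0.0842). Between HFD-337 and HFD-338 Syvn1 was 2.72-fold higher in HFD-337 than in HFD-338 (log2 fold change 1.44, SE 0.359, edgeR adjusted p = 0.00527), in all 12 alternatives. Sel1l had 189, 185 and 199 CPM in HFD-338 against 318, 306 and 217 CPM in HFD-NS, and fell to 68.1% (log2 fold change -0.55, SE 0.159, edgeR adjusted p = 0.0118), lost without HFD-NS replicate 12. It was 1.48-fold higher in HFD-NS than in SD-NS, lost without HFD-NS replicate 12 or 13 or SD-NS replicate 6 (up to 0.0765). The other derlins differed by less. Derl2 was 1.30-fold higher in HFD-NS than in SD-NS, lost without HFD-NS replicate 12 or SD-NS replicate 6 (up to 0.0632). Derl1 in HFD-NS stood at 79.4% of its SD-NS mean. That call was lost without SD-NS replicate 7, with no low-count filter and with recomputed TPM (up to 0.151). Derl2 in HFD-338 had 82.8, 77.8 and 95.5 CPM against 128, 107 and 111 CPM in HFD-NS, and fell to 74.0% in all 12 alternatives (log2 fold change -0.43, SE 0.104, edgeR adjusted p = 0.00302).

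**Figure D3:**
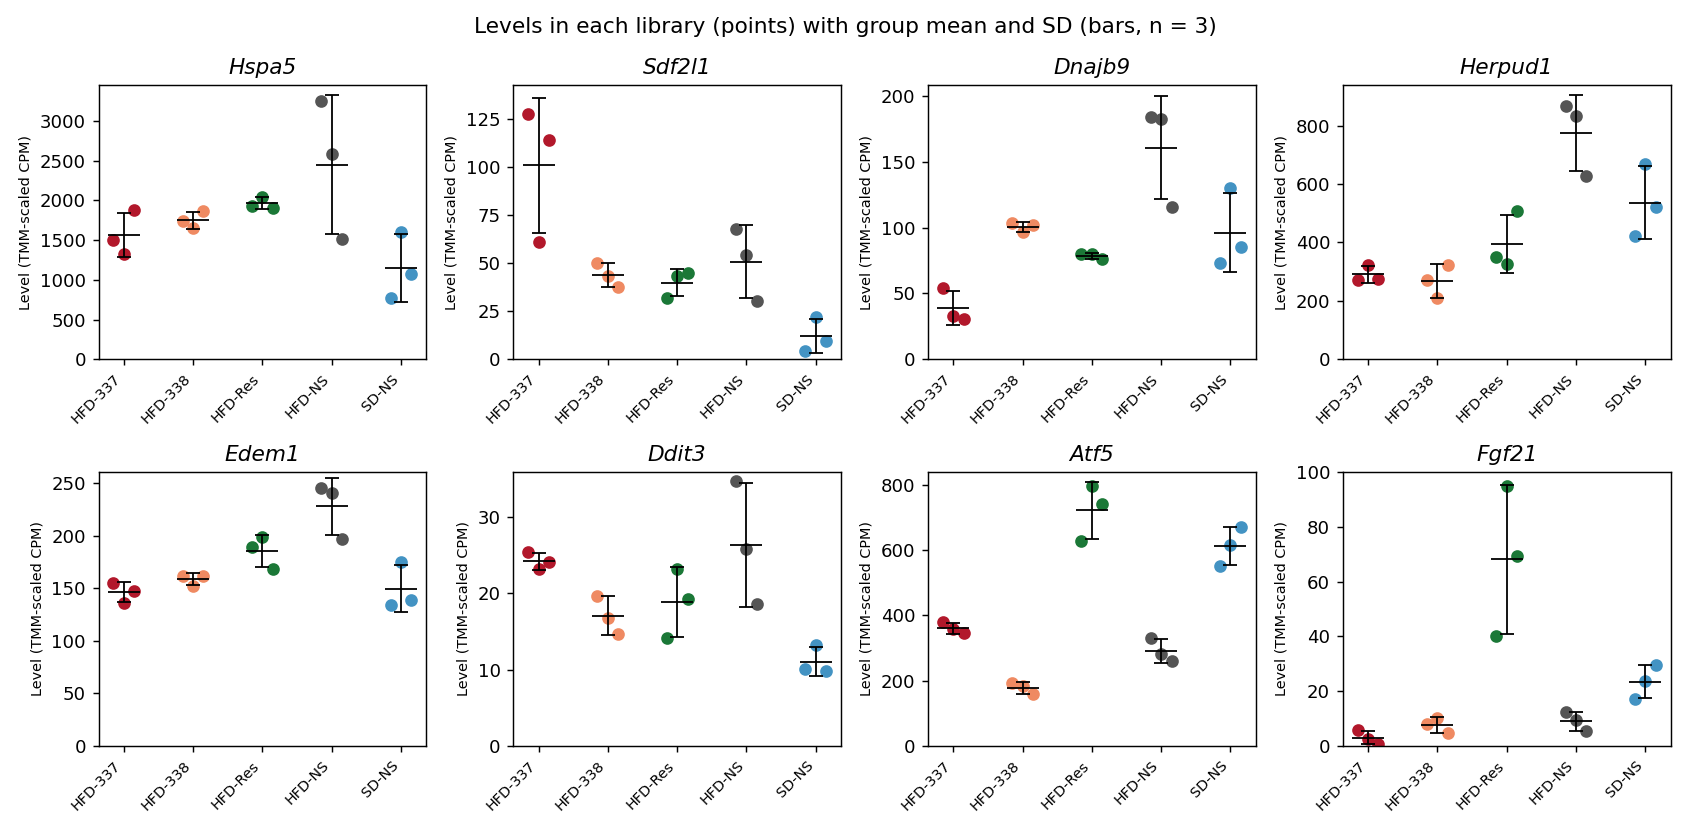
TMM-scaled CPM (y axes) of 8 genes in each library (points), with group mean and SD (bars, n = 3), groups along the x axes. HFD-NS and SD-NS libraries overlap for Hspa5, Herpud1 lies below 626 CPM in all 9 HFD-337, HFD-338 and HFD-Res libraries, and Fgf21 reaches 40.3 to 94.8 CPM in HFD-Res.

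Among the sensors, Atf6 mRNA was lower in both HFD-337 and HFD-338. It had 50.4, 48.4 and 50.5 CPM in HFD-337, 64.3, 69.8 and 63.7 CPM in HFD-338, 87.6, 93.8 and 89.1 CPM in HFD-Res, 81.2, 89.4 and 85.4 CPM in HFD-NS, and 101, 129 and 83.5 CPM in SD-NS. The 3 libraries lay close together in each high-fat group, and those of HFD-337 lay lowest. Atf6 fell to 58.4% of the HFD-NS mean in HFD-337 (log2 fold change -0.78, SE 0.115, edgeR adjusted p = 2.34e-05), in all 12 alternatives. In HFD-338 it fell to 77.3% (log2 fold change -0.37, SE 0.112, edgeR adjusted p = 0.0142), lost without HFD-338 replicate 17 and with recomputed TPM (adjusted p up to 0.204).

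Eif2ak3, encoding PERK, had 23.0, 12.3 and 11.97 CPM in HFD-337, 24.6, 26.0 and 22.5 CPM in HFD-338, 12.2, 18.6 and 14.5 CPM in HFD-Res, 27.6, 36.1 and 19.8 CPM in HFD-NS, and 13.8, 18.3 and 12.9 CPM in SD-NS. It was the 1 sensor higher in HFD-NS than in SD-NS, by 1.85-fold (log2 fold change 0.88, SE 0.256, edgeR adjusted p = 0.0195). That call was lost without HFD-NS replicate 13 or SD-NS replicate 6 or 8 (up to 0.0826). Eif2ak3 fell to 56.7% of the HFD-NS mean in HFD-337, where HFD-337 replicate 23 overlapped HFD-NS (log2 fold change -0.84, SE 0.251, edgeR adjusted p = 0.0135). It fell to 54.3% in HFD-Res without overlap (log2 fold change -0.88, SE 0.256, edgeR adjusted p = 0.0351). The HFD-337 call was lost without HFD-337 replicate 26 or HFD-NS replicate 13 (up to 0.0724), and the HFD-Res call without HFD-Res replicate 29 or 34 or HFD-NS replicate 12 or 13 (up to 0.129). Ern1, at 6.50 to 27.6 CPM over the 15 libraries, was called nowhere.

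Xbp1, the target of IRE1 splicing, had 356, 229 and 388 CPM in HFD-337, 185, 173 and 185 CPM in HFD-338, 247, 250 and 347 CPM in HFD-Res, 241, 206 and 196 CPM in HFD-NS, and 159, 189 and 171 CPM in SD-NS. HFD-337 replicate 26 lay within HFD-NS. Xbp1 was 1.51-fold higher in HFD-337 than in HFD-NS (log2 fold change 0.59, SE 0.167, edgeR adjusted p = 0.00812) and 1.79-fold higher than in HFD-338 (log2 fold change 0.84, SE 0.168, edgeR adjusted p = 0.000515). The HFD-NS comparison lost its call with recomputed TPM (0.0727) and the HFD-338 comparison kept it in all 12 alternatives.

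Atf4 had 145, 134 and 193 CPM in HFD-337, 70.9, 72.2 and 66.9 CPM in HFD-338, 108, 126 and 147 CPM in HFD-Res, 121, 90.5 and 75.9 CPM in HFD-NS, and 76.8, 91.4 and 78.8 CPM in SD-NS. HFD-337 lay above HFD-NS and HFD-338 below it, with no overlap in either comparison. Atf4 was 1.64-fold higher in HFD-337 than in HFD-NS (log2 fold change 0.71, SE 0.163, edgeR adjusted p = 0.00199), in all 12 alternatives. It fell to 73.1% of the HFD-NS mean in HFD-338 (log2 fold change -0.45, SE 0.165, edgeR adjusted p = 0.0419), called in 4 of 12 alternatives and lost without any HFD-338 library or HFD-NS replicate 12 or 13 (up to 0.218). Set against each other, Atf4 was 2.25-fold higher in HFD-337 than in HFD-338 (log2 fold change 1.17, SE 0.166, edgeR adjusted p = 2.60e-05). ATF4 is controlled mainly by translation, so its mRNA level is not its activity.

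Of the ATF4 axis, Atf5 is a related transcription factor that is itself raised by eIF2alpha phosphorylation. It had 379, 357 and 346 CPM in HFD-337, 193, 182 and 158 CPM in HFD-338, 628, 797 and 741 CPM in HFD-Res, 331, 281 and 261 CPM in HFD-NS, and 553, 616 and 671 CPM in SD-NS. The lowest HFD-Res and SD-NS libraries lay far above all others. Atf5 was 2.48-fold higher in HFD-Res than in HFD-NS (log2 fold change 1.31, SE 0.119, edgeR adjusted p = 3.17e-07). In HFD-NS it stood at 47.5% of the SD-NS mean (log2 fold change -1.07, SE 0.118, edgeR adjusted p = 3.59e-06). Atf5 fell to 61.2% of the HFD-NS mean in HFD-338 (log2 fold change -0.71, SE 0.118, edgeR adjusted p = 0.000138), and these 3 calls held in all 12 alternatives. In HFD-337 it was 1.24-fold higher than in HFD-NS (log2 fold change 0.31, SE 0.117, edgeR adjusted p = 0.0366), a call present in 4 of 12 alternatives and lost without any HFD-337 library or HFD-NS replicate 13 or 16 (up to 0.348). Of the Atf5 exon bases, 4.11% are shared with Il4i1b and Nup62, whose reads were also counted for Atf5.

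Fgf21, a liver hormone of fasting and nutrient stress that other regulators besides ATF4 also control, had 5.71, 2.65 and 0.812 CPM in HFD-337, 8.09, 10.1 and 4.71 CPM in HFD-338, 40.3, 94.8 and 69.2 CPM in HFD-Res, 12.4, 9.44 and 5.48 CPM in HFD-NS, and 17.3, 23.7 and 29.5 CPM in SD-NS. Every HFD-Res library lay above every other library. Fgf21 was 7.48-fold higher in HFD-Res than in HFD-NS (log2 fold change 2.91, SE 0.431, edgeR adjusted p = 0.000952), in all 12 alternatives. In HFD-NS it stood at 38.7% of the SD-NS mean without overlap (log2 fold change -1.34, SE 0.456, edgeR adjusted p = 0.0485). This last call was present in 4 of 12 alternatives and was lost without HFD-NS replicate 13 or 16 or any SD-NS library (up to 0.153). The HFD-337 value against HFD-NS (log2 fold change -1.58) was not called.

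Ddit3 encodes CHOP, the factor linked to stress-induced cell death, and Trib3 and Chac1 are among its downstream genes. Ddit3 had 25.4, 23.2 and 24.2 CPM in HFD-337, 19.7, 16.8 and 14.7 CPM in HFD-338, 14.1, 23.2 and 19.3 CPM in HFD-Res, 34.7, 25.8 and 18.6 CPM in HFD-NS, and 10.1, 13.2 and 9.84 CPM in SD-NS. All libraries on high-fat diet lay above those of SD-NS. Ddit3 was 2.38-fold higher in HFD-NS than in SD-NS (log2 fold change 1.25, SE 0.219, edgeR adjusted p = 0.000495), in all 12 alternatives. In HFD-338 it fell to 64.8% of the HFD-NS mean with overlap (log2 fold change -0.62, SE 0.197, edgeR adjusted p = 0.0207), lost without HFD-338 replicate 18 or 19 or HFD-NS replicate 12 (up to 0.157). Of its exon bases, 7.81% are shared with Mars1.

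Trib3, a pseudokinase that damps insulin signalling, had 5.91, 3.34 and 2.23 CPM in HFD-337, 9.35, 6.43 and 8.90 CPM in HFD-338, 6.42, 8.44 and 11.9 CPM in HFD-NS, and 2.26, 4.28 and 5.06 CPM in SD-NS. HFD-337 lay below HFD-NS and SD-NS lay below HFD-NS, neither with overlap. Trib3 fell to 42.9% of the HFD-NS mean in HFD-337 (log2 fold change -1.24, SE 0.316, edgeR adjusted p = 0.00352), in all 12 alternatives. It was 2.31-fold higher in HFD-NS than in SD-NS (log2 fold change 1.30, SE 0.329, edgeR adjusted p = 0.00679), lost without SD-NS replicate 6 (up to 0.0613).

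Chac1, which breaks down glutathione, was thinly counted, with 7, 9 and 3 counts in HFD-338, 20, 14 and 24 counts in HFD-NS and 2, 4 and 2 counts in SD-NS. It was higher in HFD-NS than in SD-NS (log2 fold change 2.11, SE 0.577, edgeR adjusted p = 0.0108), lost without SD-NS replicate 6 (up to 0.0819). In HFD-338 it fell to 34.9% of the HFD-NS mean (log2 fold change -1.49, SE 0.476, edgeR adjusted p = 0.0194), lost without HFD-338 replicate 17 or 19 or HFD-NS replicate 16 (up to 0.0731).

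Asns, the asparagine synthetase and a classical amino acid response gene, was close to absent in HFD-NS. It had 17, 3 and 10 counts in HFD-337, 31, 16 and 20 counts in HFD-338, 6, 19 and 18 counts in HFD-Res, 0, 3 and 3 counts in HFD-NS, and 10, 33 and 15 counts in SD-NS. With 6 counts in the HFD-NS group no fold is given, and the fitted values depend on the fit's prior count. The log2 fold change against HFD-NS was 3.46 in HFD-338 (SE 0.892, edgeR adjusted p = 0.00706) and 3.47 in HFD-Res (SE 0.937, edgeR adjusted p = 0.0231), without overlap in either. In HFD-337 it was 2.81 with overlap (SE 1.00, edgeR adjusted p = 0.0319), and in HFD-NS against SD-NS it was -3.94 (SE 0.894, edgeR adjusted p = 0.00459). The HFD-338 call held in all 12 alternatives, and the diet call in each of the 11 that gave a value. The HFD-Res call held in 4 of 11, lost without HFD-Res replicate 30 or 34 or any HFD-NS library (up to 0.0853), and the HFD-337 call in 3 of 11, lost without HFD-337 replicate 23 or 27 or any HFD-NS library (up to 0.224).

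Sesn2, a stress-induced brake on mTORC1, had 1.18, 1.498 and 1.83 CPM in HFD-337, 4.33, 5.195 and 4.32 CPM in HFD-338, and 3.39, 3.97 and 3.06 CPM in HFD-NS. It fell to 43.3% of the HFD-NS mean in HFD-337 (log2 fold change -1.20, SE 0.424, edgeR adjusted p = 0.0266), lost without HFD-337 replicate 23 or 26 or HFD-NS replicate 13 (up to 0.0746). Against HFD-338 it stood at 32.5% (log2 fold change -1.61, SE 0.413, edgeR adjusted p = 0.00270), in all 12 alternatives. Ppp1r15a encodes GADD34, the phosphatase subunit that reverses eIF2alpha phosphorylation. In HFD-NS it had 7.59, 7.95 and 6.01 CPM against 12.2, 10.3 and 10.1 CPM in SD-NS, and stood at 65.9% (log2 fold change -0.62, SE 0.191, edgeR adjusted p = 0.0206), lost without HFD-NS replicate 16 or SD-NS replicate 6 (up to 0.115). Atf3, a stress-induced repressor, had 8.35, 10.1 and 9.44 CPM in HFD-Res against 5.14, 7.45 and 1.16 CPM in HFD-NS and was called nowhere.

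Between HFD-337 and HFD-338, the remaining called genes were Atf5, Trib3, Derl2, Dnajb11, Dnajc3, Atf6, Ddit3 and Eif2ak3, and of these Eif2ak3 alone overlapped. Atf5 was 2.03-fold higher in HFD-337 (log2 fold change 1.02, SE 0.119, edgeR adjusted p = 1.25e-06), and Trib3 stood at 46.5% of its HFD-338 mean (log2 fold change -1.12, SE 0.320, edgeR adjusted p = 0.00612). Derl2 was 1.48-fold, Dnajb11 1.35-fold and Ddit3 1.42-fold higher in HFD-337. Dnajc3 stood at 65.2%, Atf6 at 75.5% and Eif2ak3 at 64.8% of the HFD-338 mean. The Dnajb11 call was lost without HFD-337 replicate 23 or 27 or any HFD-338 library (up to 0.540). The Ddit3 call was lost without any HFD-337 library or HFD-338 replicate 18 or 19 (up to 0.412), and the Eif2ak3 call without HFD-337 replicate 26 or 27 or HFD-338 replicate 17 or 18 (up to 0.174).

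Other genes of these pathways, listed by function, were counted beside the 35. Of all tested genes, 12% were called higher and 16.1% lower in HFD-NS against SD-NS. Against HFD-NS these shares were 24.4% and 22.8% in HFD-337, 18.9% and 17.9% in HFD-338, and 6.22% and 6.74% in HFD-Res. Of 39 further ER folding, translocation and degradation genes, 8 were higher and 8 lower in HFD-NS against SD-NS, with a median log2 fold change of 0.02. Against HFD-NS, 13 of the 39 were higher and 12 lower in HFD-337, 5 higher and 7 lower in HFD-338, and 0 were called in HFD-Res by edgeR. In HFD-337, Fkbp11, a prolyl isomerase known as an Xbp1 target, averaged 27.6 ± 7.73 CPM against 4.36 ± 0.911 CPM in HFD-NS (SD, n = 3 each; log2 fold change 2.64, SE 0.217, edgeR adjusted p = 3.84e-08). Bloc1s1, whose mRNA IRE1 is known to cut, averaged 110 ± 14.2 CPM in HFD-337 against 58.0 ± 4.69 CPM in HFD-NS (SD, n = 3 each, log2 fold change 0.93, SE 0.122, edgeR adjusted p = 6.68e-06). Fkbp11 was also 2.02-fold higher in HFD-338 than in HFD-NS (edgeR adjusted p = 0.00193). In HFD-337 it was 3.13-fold higher than in HFD-338 (edgeR adjusted p = 2.34e-06). Bloc1s1 averaged 45.4 CPM in HFD-338, and was 2.43-fold higher in HFD-337 than in HFD-338 (edgeR adjusted p = 1.56e-07). Bloc1s1 was also 1.52-fold higher in HFD-NS than in SD-NS (edgeR adjusted p = 0.00207). Among the lower genes in HFD-337, Ero1b stood at 57.4% and Hspa13 at 57.7% of the HFD-NS mean, both without overlap.

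Of 31 tested further genes of the integrated stress response, 2 were higher and 6 lower in HFD-NS against SD-NS, with a median log2 fold change of 0.11. Against HFD-NS, 2 were higher and 8 lower in HFD-337, 9 higher and 7 lower in HFD-338, and 13 higher and 2 lower in HFD-Res. The shares of all tested genes called higher and lower were 12% and 16.1% in the diet comparison. Against HFD-NS they were 24.4% and 22.8% in HFD-337, 18.9% and 17.9% in HFD-338, and 6.22% and 6.74% in HFD-Res. The HFD-Res median was 0.48, against 0.01 over all genes. Psat1, of serine synthesis, averaged 8.39 ± 3.78 CPM in HFD-Res against 0.457 ± 0.294 CPM in HFD-NS (SD, n = 3 each; log2 fold change 4.14, SE 0.541, edgeR adjusted p = 3.10e-05). Mthfd2, of mitochondrial folate metabolism, averaged 6.02 ± 2.57 CPM in HFD-Res against 1.17 ± 0.323 CPM in HFD-NS (SD, n = 3 each; log2 fold change 2.35, SE 0.392, edgeR adjusted p = 0.000366). Vldlr, the VLDL receptor that ATF4 can raise, went the other way, at 2.60 ± 0.864 CPM in HFD-Res against 15.3 ± 5.98 CPM in HFD-NS (SD, n = 3 each, log2 fold change -2.50, SE 0.503, edgeR adjusted p = 0.00418). Vldlr was also lower than in HFD-NS in HFD-337 (18.4% of the HFD-NS mean, edgeR adjusted p = 0.00140) and in HFD-338 (28.8%, edgeR adjusted p = 0.00562). In HFD-NS it was 3.50-fold higher than in SD-NS (edgeR adjusted p = 0.0117). In HFD-338, Slc7a11, the cystine transporter, averaged 13.1 ± 8.53 CPM against 0.601 ± 0.559 CPM in HFD-NS (SD, n = 3 each, log2 fold change 4.46, SE 0.619, edgeR adjusted p = 7.26e-05). Its low level in HFD-NS likewise leaves the size of the change uncertain.

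Chaperones of the cytosol and the mitochondria were counted beside those of the ER. All tested genes were called higher in 12% and lower in 16.1% in HFD-NS against SD-NS. Against HFD-NS the shares were 24.4% and 22.8% in HFD-337, 18.9% and 17.9% in HFD-338, and 6.22% and 6.74% in HFD-Res. Of 12 cytosolic heat shock genes, 0 were called higher by edgeR and 2 lower in HFD-NS against SD-NS, and of 10 mitochondrial chaperones and proteases 1 was higher and 3 lower. Against HFD-NS, 1 of the 12 heat shock genes was higher and 4 lower in HFD-337, 0 higher and 6 lower in HFD-338, and 0 higher and 1 lower in HFD-Res. The lower gene in HFD-Res was Hspa1b, at 8.69 ± 4.86 CPM against 85.7 ± 59.4 CPM in HFD-NS (SD, n = 3 each; log2 fold change -3.35, SE 0.718, edgeR adjusted p = 0.0112). Of the 10 mitochondrial genes, 2 were higher and 8 lower in HFD-337, 0 higher and 6 lower in HFD-338, and 1 higher and 1 lower in HFD-Res.

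In HFD-337 the direction of a call went with the length of the gene on the chromosome. Over all tested genes spanning under 10 kb, 40.0% were called higher and 9.90% lower in HFD-337 against HFD-NS, and over genes of 100 kb or more 8.17% were higher and 42.6% lower. The 10 members called lower spanned 4.17 to 163 kb (median 24.15 kb), and the 5 called higher 2.36 to 18.0 kb (median 4.84 kb). Atf6 is the longest of the 35 at 163 kb (chromosome 1, 170532026 to 170695340, mm39). Dnajb9 at 4.17 kb (chromosome 12, 44252680 to 44256851) and Herpud1 at 8.94 kb (chromosome 8, 95113057 to 95121999) were short and lower. In HFD-338 against HFD-NS, genes under 10 kb were called higher in 15.9% and lower in 18.8%, and those of 100 kb or more in 23.1% and 22.0%, and the 13 members called lower had a median span of 8.94 kb. In HFD-337 against HFD-338, genes under 10 kb were called higher in 46.2% and lower in 16.4%, and those of 100 kb or more in 11.4% and 48.9%. There the 10 members called higher had a median span of 5.095 kb and the 7 called lower 31.7 kb. In HFD-NS against SD-NS the shares were 14.7% and 11% under 10 kb, and 9.25% and 19.3% at 100 kb or more. The part of gene span in the calls was not tested.

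**Figure D4:**
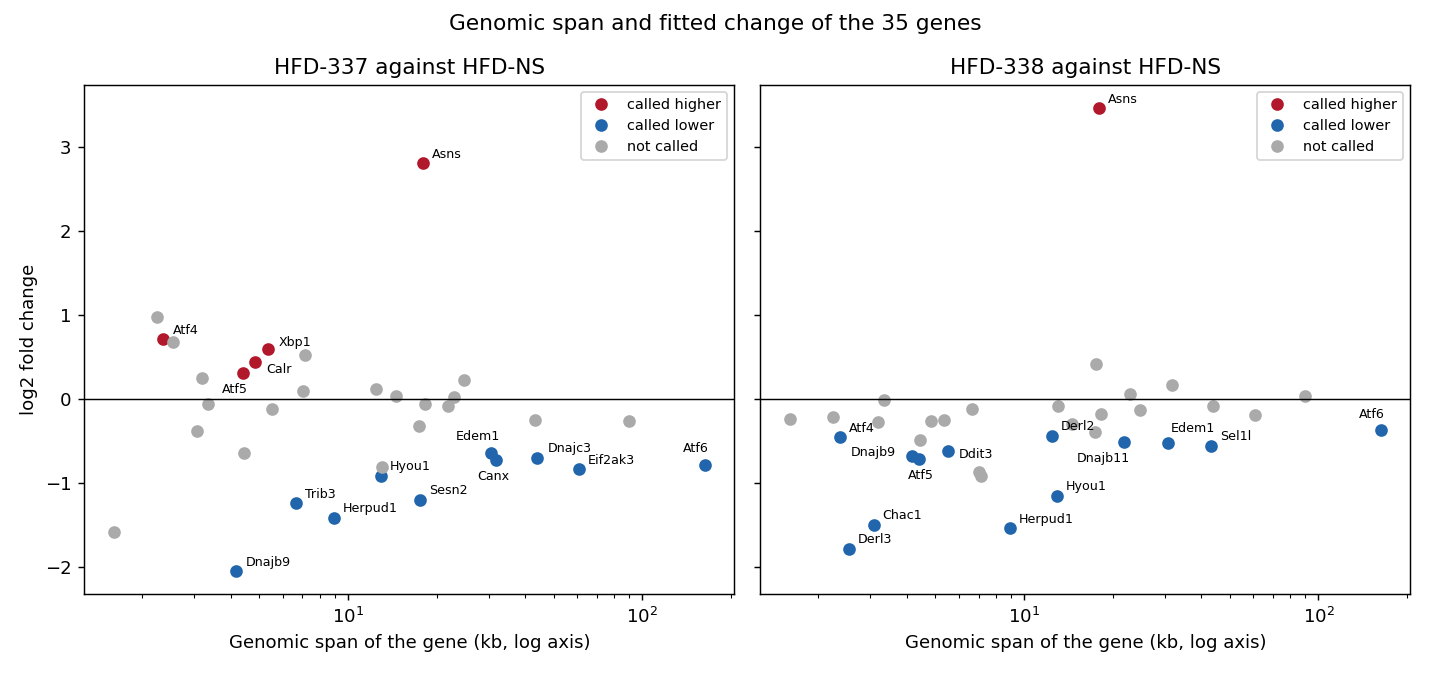
Fitted log2 fold change (y axis) of the 35 genes against their genomic span in kb (x axes, log scale) in HFD-337 and in HFD-338 against HFD-NS, with called genes named. In HFD-337 the genes called higher span at most 18.0 kb, and 5 of the 7 genes spanning 30 kb or more are called lower.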

How the data were processed

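Gene counts of 15 mouse liver libraries were used as the authors deposited them: raw counts per gene, made with featureCounts 2.0.1 on exons of an mm39 annotation, unstranded and with reads on overlapping genes counted for each, per the file headers. The submitters' processing notes also name mm39, STAR 2.7.10b, Bowtie 1.3.1 and Trim Galore 0.6.10, with no role given. Per the labels, RNA was TRIzol-extracted and polyA-selected. The authors' deposited TPM table was not used, since its columns carry no replicate number. The exon lengths (bases) in the deposited count table gave recomputed TPM.

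Members and lists were chosen with earlier results of these data known, so their counts are descriptions. The count table had 26264 genes, 0 unnamed rows and 0 columns of other samples. Counts were filtered with filterByExpr, scaled by TMM and fitted over 15 libraries with edgeR 4.0.16 in R 4.3.3 (robust quasi-likelihood, common biological coefficient of variation 0.134). P-values were adjusted over 13189 genes by Benjamini-Hochberg, and 0.05 was the threshold. The SE is the log2 fold change divided by the square root of its F statistic. The fit was also run on counts simulated from its own dispersions, which cannot vouch for the calls in these libraries. Alternatives were RLE size factors, no filter, DESeq2 1.42.0, limma-voom (limma 3.58.1), the 2 groups alone, log2(TPM + 1) of genes with TPM of at least 1 in 3 libraries, and leaving out each library. All 35 members are named. Full statistics go to members called without overlap, about 12 a comparison at most by size of change, and to some others for their role. From each wider list, named genes were among the 2 most changed per direction.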

Additional observations from a re-analysis of the deposited data

How the results depend on the processing

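No paired analysis was possible because the groups share no replicate numbers. No member's fitted change reversed sign while called under any alternative. The number of members higher in HFD-NS against SD-NS was 20, but 8 when only those 2 groups were fitted, and leaving out a library gave 8 to 23. The number lower was 5, against 2 with no filter, 2 with recomputed TPM, and 3 to 5 with a library left out. Higher in HFD-337 against HFD-NS were 5, against 2 with no filter, 3 with limma-voom, 2 in the 2 groups alone, 1 with TPM and 2 to 5 with a library left out. Lower in HFD-338 against HFD-NS were 13, against 5 with TPM and 6 to 17 with a library left out. Lower in HFD-Res against HFD-NS were 3, and 1 to 6 with a library left out. Higher in HFD-337 against HFD-338 were 10, and 6 with TPM. The other counts stayed within 1.5 times. Of 77 calls of members over the 5 comparisons, 4 were lost with DESeq2, 5 with RLE, 10 with limma-voom, 13 with no filter, 17 in the 2 groups alone and 21 with TPM. Calls that held in all alternatives numbered 5 of 25 in HFD-NS against SD-NS, 8 of 15 in HFD-337, 5 of 14 in HFD-338 and 3 of 6 in HFD-Res against HFD-NS, and 12 of 17 in HFD-337 against HFD-338. The causes were not tested. Low depth limits Asns, Chac1, Sesn2 and Atf3, all under 11 CPM in every library, and Derl3 in SD-NS, with 34 counts in that group.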
